A study of Homo sapiens with 2 samples.

Results

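LGR5 and 9 other genes of the Wnt signalling core were followed in messenger RNA from cultured human cells labelled as cancer cells. The cultures were exposed to iMQT_020 or to vehicle. The genes were LGR4 and LGR5 (receptors for R-spondins), RNF43 and ZNRF3 (membrane ubiquitin ligases), AXIN1 and AXIN2 (scaffolds), CTNNB1 (β-catenin), and LEF1, TCF7 and TCF7L2 (DNA-binding partners of β-catenin). They were found by symbol in the deposited gene table, which held 10 of 10 of them among 46427 gene rows. The cells were labelled MiaPaca2 and pancreatic adenocarcinoma, and both cultures were treated for 48 hours. The control group received vehicle, and the other group received iMQT_020, described in the series' design as an inhibitor of the mitochondrial glutamine transporter. Each group was 1 library, so there are no replicates, no spread between cultures and no test of the treatment. Any difference between the treatments cannot be told apart from any other difference between the 2 cultures or library preparations. In bulk RNA, fewer cells that express a gene and less of its RNA per cell cannot be told apart either.

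Wnt proteins bind a Frizzled receptor together with LRP5 or LRP6, and this stops a complex built on axin, APC and the kinases GSK3 and CK1 from marking β-catenin for destruction. β-catenin then enters the nucleus and acts with TCF/LEF proteins, which otherwise hold target genes silent with TLE repressors. Several targets feed back on the pathway: AXIN2 rebuilds the destruction complex, and RNF43 and ZNRF3 remove Frizzled receptors from the cell surface. R-spondins, bound by LGR4, LGR5 or LGR6, draw RNF43 and ZNRF3 away and so spare the receptors. LGR5 is known as a Wnt target and a marker of intestinal stem cells, and loss of RNF43 is a known event in pancreatic tumours that grow on Wnt ligand.

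The vehicle library held 67095283 estimated counts and the iMQT_020 library 59139157. Genes that tell cell lines apart went against the labelled line. MIA PaCa-2 is known to lack CDKN2A, yet this gene stood at 278 TPM (transcripts per unit of all transcripts, a level corrected for transcript length) in vehicle and 208 TPM in iMQT_020, and its neighbours MTAP and CDKN2B were present too. CD44, abundant in that line, had 16 and 3 counts. The values below therefore describe the cells as sequenced and cannot be taken as those of MIA PaCa-2. Among 7 duct epithelial markers, KRT8 (128 and 92.3 TPM) and KRT18 (97.4 and 77.5 TPM) were abundant, KRT7 and KRT19 were at 0 in both libraries, and the epithelial cadherin CDH1 had 7 and 6 counts. All 6 acinar and islet markers were at 0 in both. Fibroblast markers summed to 17.1 and 11.4 TPM, nearly all from COL1A1, and DCN and COL1A2 were at 0. Blood and endothelial markers summed to 2.32 and 1.96 TPM, with PTPRC, CD3E and HBB at 0. The part of these markers in the results was not tested.

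All 10 genes had at least 50 counts in a library, the minimum for a gene to be called measured, which 14805 genes reached. LGR5 alone of the 10 lay past a 2-fold limit: it was 2.01-fold lower in the iMQT_020 library. For comparison, 3.09% of all measured genes were at least 2-fold lower. None of the 10 was at least 2-fold higher, against 2.15% of all measured genes. At a 1.5-fold limit LGR5 was again the 1 lower gene, where 10.2% of measured genes were lower, and 0 of the 10 were higher, where 6.3% were. The 10 genes were proposed with these same values in view, so their counts and ratios are a description and nothing was tested on them. The median log2 ratio of the 10 (iMQT_020 over vehicle, from counts scaled for library size) was −0.00, and that of all measured genes was −0.02.

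**Figure D1:**
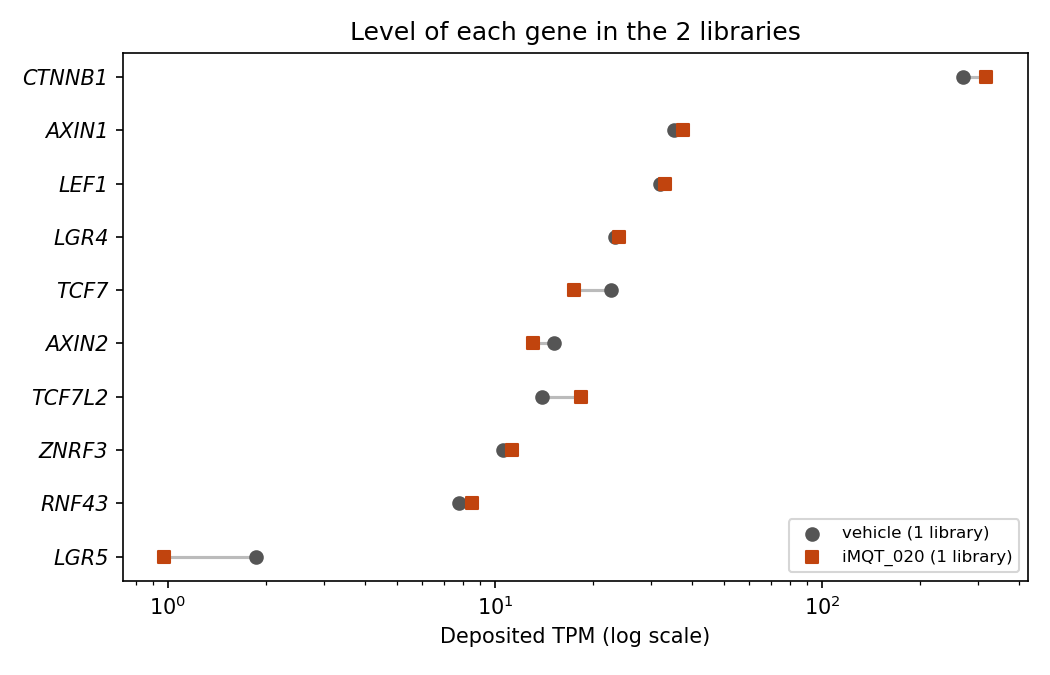
Deposited TPM of the 10 genes on a log axis, one circle for the vehicle library and one square for the iMQT_020 library, joined by a line. LGR5 is the lowest gene in both libraries (1.86 and 0.974 TPM) and has the longest line, while CTNNB1 is the highest (269 and 318 TPM).

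The levels in the vehicle library spanned 1.86 to 269 TPM. In the vehicle library CTNNB1 led with 269 TPM, above 96.4% of measured genes, followed by AXIN1 at 35.4 TPM and LEF1 at 32.0 TPM. LGR4 at 23.3 TPM, TCF7 at 22.7 TPM, AXIN2 at 15.1 TPM and TCF7L2 at 13.9 TPM formed the middle. ZNRF3 at 10.6 TPM, RNF43 at 7.77 TPM and LGR5 at 1.86 TPM were the lowest. The same 4 genes were highest and the same 3 lowest in the iMQT_020 library, and the plot of levels shows the middle changing places: TCF7L2 stood below TCF7 and AXIN2 in vehicle and above both in iMQT_020. With 1 library each, it cannot be said which neighbours in this order differ beyond the spread between cultures.

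The R-spondin receptors differed most from each other. LGR5, on chromosome 12 from 71439129 to 71586310 (GRCh38), had 253 counts in vehicle and 111 in iMQT_020, where 224 would have given an equal level. Its log2 ratio was −1.01, with an exact 95% interval of −1.35 to −0.68, which is 1.61-fold to 2.54-fold lower. This interval, like all those that follow, covers counting error only and not the spread between cultures. The call sits on the limit itself: 1 more count in the iMQT_020 library would have placed LGR5 within 2-fold. On the deposited length-corrected values it was within 2-fold, at −0.93 by TPM (1.86 and 0.974 TPM) and at −0.98 by FPKM (fragments per kilobase and sequencing depth, 0.763 and 0.388).

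Genes with like counts give a background for that value. Among the 2173 measured genes whose mean count lay between 91 and 364, within 2-fold of the 182 of LGR5, 7.32% were at least 2-fold lower and 3.64% at least 2-fold higher. In 95% of them the log2 ratio lay between −1.36 and 1.15. LGR5 lay inside that range. The range is wider than the counting interval of LGR5, and the cause of the spread was not tested. The plot of ratio against count shows LGR5 at the left, where ratios scatter widely, and the 9 other genes at 1103 to 27366 mean counts, a range in which 0.722% of 8445 genes were at least 2-fold lower and 0.213% at least 2-fold higher.

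**Figure D2:**
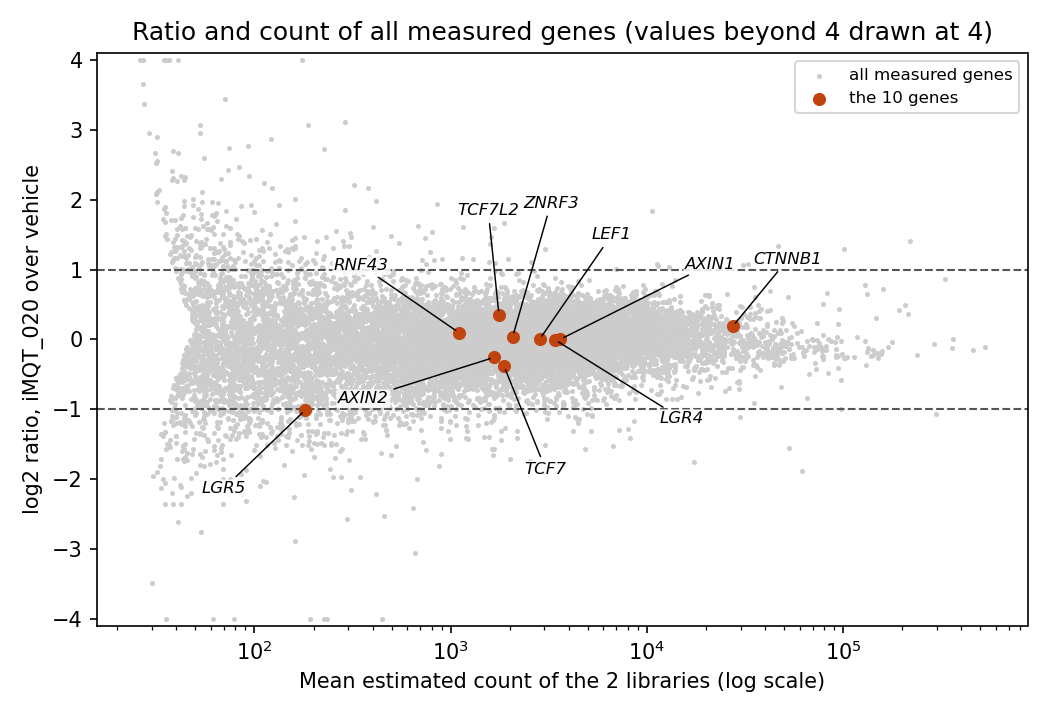
Each grey point is 1 of 14805 measured genes, with its mean estimated count on a log axis and its log2 ratio, iMQT_020 over vehicle; the dashed lines mark 2-fold. LGR5 (mean count 182) lies on the lower dashed line within the wide scatter of genes with few counts, and the 9 other genes lie between the lines.

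LGR4, the broadly expressed paralog of LGR5, lies on chromosome 11 from 27365961 to 27472790. It had 3612 and 3185 counts, or 53.9 and 53.7 CPM (counts scaled for depth), and its log2 ratio was −0.01 (−0.07 to 0.06). By scaled counts LGR4 was thus nearly level while LGR5 was lower. The ratio of LGR4 to LGR5 in TPM was 12.6 in vehicle and 24.6 in iMQT_020. LGR6, the third receptor, had 4 and 0 counts. Since LGR4 made up 92.5% and 96.1% of the summed TPM of the 3 receptors, that sum was 25.2 and 24.9 TPM, a log2 ratio of −0.02.

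The ligands of these receptors were scarce. None of the 4 R-spondin genes reached 50 counts in a library. RSPO4 had 47 and 19 counts, RSPO2 had 40 and 32, RSPO1 had 39 and 12, and RSPO3 had 6 and 0. Their summed level was 1.45 TPM in vehicle and 0.799 TPM in iMQT_020.

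The paired ubiquitin ligases, which are the targets of R-spondin and LGR, were close to level. RNF43, on chromosome 17 from 58352500 to 58417534, had 1134 and 1072 counts and a log2 ratio of 0.10 (−0.03 to 0.22). ZNRF3, on chromosome 22 from 28883572 to 29057488, had 2170 and 1972 counts and a log2 ratio of 0.04 (−0.05 to 0.13). Both intervals span no difference, so at this depth none was detectable. RNF43 held 42.3% of their summed TPM in vehicle and 42.9% in iMQT_020, so their balance was nearly the same in both libraries.

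The axins differed from each other. AXIN1, the scaffold present in most cells, lies on chromosome 16 from 287440 to 352723 and had 3832 and 3390 counts, with a log2 ratio of −0.00 (−0.07 to 0.07). AXIN2, the feedback axin and a standard readout of β-catenin activity, lies on chromosome 17 from 65528563 to 65561648. It had 1915 counts in vehicle and 1417 in iMQT_020, was 1.20-fold lower, and had a log2 ratio of −0.26 (−0.36 to −0.16). By deposited TPM it was at 15.1 and 13.1. That size was common, since 26.4% of measured genes had a lower ratio than AXIN2. AXIN1 made up 70.03% of the summed axin TPM in vehicle and 74.2% in iMQT_020, and the sum itself was 50.5 and 50.7 TPM.

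CTNNB1, on chromosome 3 from 41199505 to 41240443, had 27272 and 27460 counts. Scaled for depth this was 1.14-fold higher in iMQT_020, a log2 ratio of 0.19 (0.16 to 0.21), and 71.6% of measured genes had a lower ratio. The counts measure its messenger RNA, whereas β-catenin is controlled mainly through the stability of the protein, which was not measured. Of 4 measured junction partners, in the other pool of β-catenin at the cell membrane, 3 were above 0, beside 47.3% of all measured genes. Past 2-fold were 0 of the 4, beside 2.15% of all measured genes higher and 3.09% lower. The median of these partners was 0.09. CTNNA1, α-catenin and the most abundant, was at 0.15 and CTNND1, p120-catenin, had the largest ratio at 0.32.

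**Figure D3:**
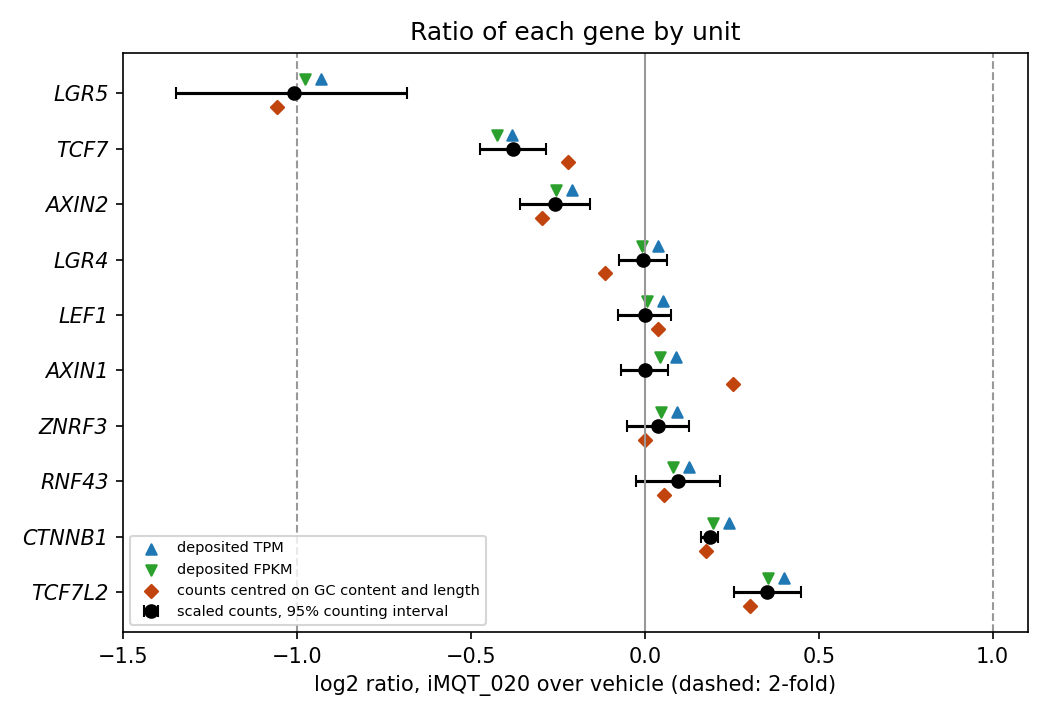
The log2 ratio of each gene, iMQT_020 over vehicle, from scaled counts with its 95% counting interval (circles), from deposited TPM and FPKM (triangles) and from counts centred on GC content and transcript length (diamonds); dashed lines mark 2-fold. LGR5, TCF7 and AXIN2 lie below 0 and TCF7L2 and CTNNB1 above 0 by every value drawn, and AXIN1 lies at −0.00 by counts and at 0.25 after centring.

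The TCF/LEF genes went in different directions. TCF7, which encodes TCF1, had 2223 counts in vehicle and 1513 in iMQT_020. It was 1.30-fold lower, with a log2 ratio of −0.38 (−0.47 to −0.28), and 18.5% of measured genes had a lower ratio. TCF7L2, which encodes TCF4, had 1655 and 1869 counts. It was 1.28-fold higher, with a log2 ratio of 0.35 (0.26 to 0.45), and 84.5% of measured genes had a lower ratio. LEF1, with 3011 and 2663 counts, was level at −0.00 (−0.08 to 0.07). TCF7L1, a family member known mainly as a repressor, had 875 and 681 counts and a ratio of −0.19 (−0.33 to −0.04).

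TCF7 stood above TCF7L2 in vehicle (22.7 and 13.9 TPM), and the 2 were close in iMQT_020 (17.4 and 18.4 TPM). The ratio of TCF7 to TCF7L2 in TPM was 1.63 in vehicle and 0.947 in iMQT_020, and their log2 ratios differed by −0.73. TCF7 made up 28.8% of the TPM summed over the 4 TCF/LEF genes in vehicle and 22.3% in iMQT_020, and TCF7L2 17.7% and 23.6%. LEF1 was the largest part in both, with 40.7% and 42.6%. The family sum was 78.7 and 77.9 TPM, a log2 ratio of −0.01, so the genes of this family differed in make-up between the libraries more than in total.

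**Figure D4:**
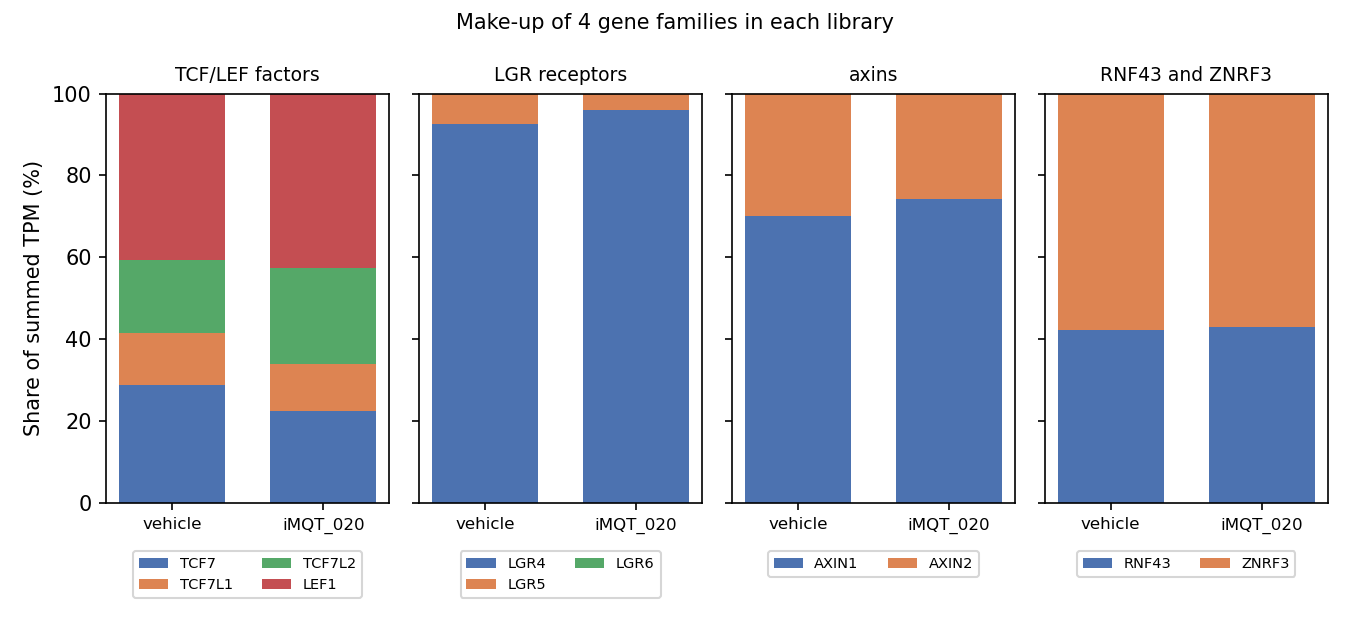
Stacked bars give the share of each gene in the summed TPM of its family (vertical axis, percent) in the vehicle and the iMQT_020 library, for 4 families. TCF7 holds 28.8% and 22.3% of the TCF/LEF sum and TCF7L2 17.7% and 23.6%, LGR5 holds 7.37% and 3.91% of the LGR sum, and the shares of RNF43 and ZNRF3 are nearly equal between libraries.

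TCF7 (chromosome 5, 134108218 to 134148210), TCF7L2 (chromosome 10, 112950247 to 113167678) and LEF1 (chromosome 4, 108047548 to 108168932) each have several starts, and short TCF7 and LEF1 products that lack the β-catenin binding region are known. The deposited counts sum all transcripts of a gene (26 RefSeq transcripts are listed for TCF7, 17 for TCF7L2 and 8 for LEF1), so the starts were not separated. TCF7 and TCF7L2 were chosen for display because they went in opposite directions. Both searched stretches of these genes with a TCF/LEF core motif are shown, and of those without it only the first of TCF7L2. The 3 sequences below are the 250 bases before an internal start of TCF7, the first start of TCF7L2 and an internal start of TCF7L2. They come from RefSeq on GRCh38.p14 and are written 5′ to 3′ on the strand of the gene, which is the plus strand for both genes. Capitals mark a TCF/LEF core motif.
TCF7 internal start, chr5:134123368-134123617: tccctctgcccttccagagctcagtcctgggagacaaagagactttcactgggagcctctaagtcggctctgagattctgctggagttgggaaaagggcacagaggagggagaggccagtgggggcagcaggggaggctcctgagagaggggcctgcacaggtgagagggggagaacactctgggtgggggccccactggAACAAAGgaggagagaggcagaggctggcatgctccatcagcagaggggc
TCF7L2 first start, chr10:112949997-112950246: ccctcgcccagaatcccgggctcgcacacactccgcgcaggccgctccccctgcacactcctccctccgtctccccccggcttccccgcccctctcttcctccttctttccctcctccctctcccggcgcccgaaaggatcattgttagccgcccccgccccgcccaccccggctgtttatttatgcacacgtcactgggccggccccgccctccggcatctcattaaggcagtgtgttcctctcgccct
TCF7L2 internal start, chr10:113126383-113126632: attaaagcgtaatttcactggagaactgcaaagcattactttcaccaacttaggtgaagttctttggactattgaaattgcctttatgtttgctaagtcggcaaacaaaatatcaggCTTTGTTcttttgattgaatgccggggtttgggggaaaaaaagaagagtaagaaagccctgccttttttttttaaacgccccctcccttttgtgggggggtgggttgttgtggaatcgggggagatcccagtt

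The search used 4 forms of the 7-base motif, on both strands, in the 250 bases before each start. The first form was CTTTGAT. The second, which gave the matches, was CTTTGTT. The third was CTTTGAA. The last was CTTTGTA. No pair of forms can start at the same base of 1 strand, though forms on opposite strands may overlap. RefSeq starts were at hand for 7 of the 10 genes, in 11 windows; LGR5, AXIN2 and ZNRF3 had none. A motif was found in 2 windows. In the internal TCF7 window it was CTTTGTT on the opposite strand, and in the internal TCF7L2 window it was CTTTGTT on the same strand as the gene. The windows of LGR4, AXIN1, RNF43, LEF1 and CTNNB1, the other window of TCF7 and the first and the third of TCF7L2 held none of the 4 forms. The LEF1 window and both TCF7 windows lie inside the RefSeq spans of these genes, so their outermost starts were not searched. Of all 35116 windows of the same length, 12.0% held at least 1 form and 4.499% held CTTTGTT. The match is a description of letters, and its part in the ratios of TCF7 and TCF7L2 was not tested.

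The known Wnt targets among the 10 were lower or close to level. AXIN2, LGR5, RNF43, ZNRF3, LEF1 and TCF7 are textbook targets of β-catenin: LGR5, TCF7 and AXIN2 were lower by −1.01, −0.38 and −0.26 on the log2 scale, and LEF1, ZNRF3 and RNF43 lay between −0.00 and 0.10. The counting intervals lay below no difference for 3 of the 10, against 39.1% of all measured genes. They lay above it for 2, against 35%. The 3 were the targets LGR5, TCF7 and AXIN2, and the 2 were CTNNB1 and TCF7L2, which are not among the targets named here. Neither share of the 10 was above that of the transcriptome at large.

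Centring on sequence composition, which compares a gene with others of like GC content and length, moved some of these values. The 10 transcripts ran from 3288 bases (TCF7) to 6872 (ZNRF3) and from 42.2% GC (LGR4) to 63.5% (AXIN1). The bin of GC content and length that holds AXIN1 had 146 genes with a median ratio of −0.25, so the centred ratio of AXIN1 was 0.25. TCF7, with a bin median of −0.16, was at −0.22 once centred. LGR4, with a bin median of 0.11, moved from −0.01 to −0.11. LGR5 was at −1.06, AXIN2 at −0.30, TCF7L2 at 0.30 and CTNNB1 at 0.17, all with the sign they had before.

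Overlapping genes could bear on 1 of the 10. In the RefSeq annotation the span of TCF7 shares 6323 bases with VDAC1, which encodes a channel of the outer mitochondrial membrane. VDAC1 had 25968 and 19906 counts and a log2 ratio of −0.21 (−0.23 to −0.18). No source used here says whether counting used the strand, and reads in the shared bases cannot be assigned with certainty. The part of VDAC1 in the TCF7 value was not tested. The other overlapping genes in the table (LGR4-AS1, ZNRF3-AS1, LEF1-AS1, TSPOAP1-AS1, SNORA87 and LOC105369833) had between 0 and 12 counts.

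Around the 10, 104 further Wnt pathway genes in 9 lists by role were read, of which 73 were measured. A 2-fold higher level was seen for 2 of them (2.74%) and a 2-fold lower one for 5 (6.85%), beside 2.15% and 3.09% of all measured genes. Their median log2 ratio was −0.10. Of all measured genes 52.7% had a log2 ratio below 0 and 47.3% above 0, and the counts in each list are read beside these shares.

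**Figure D5:**
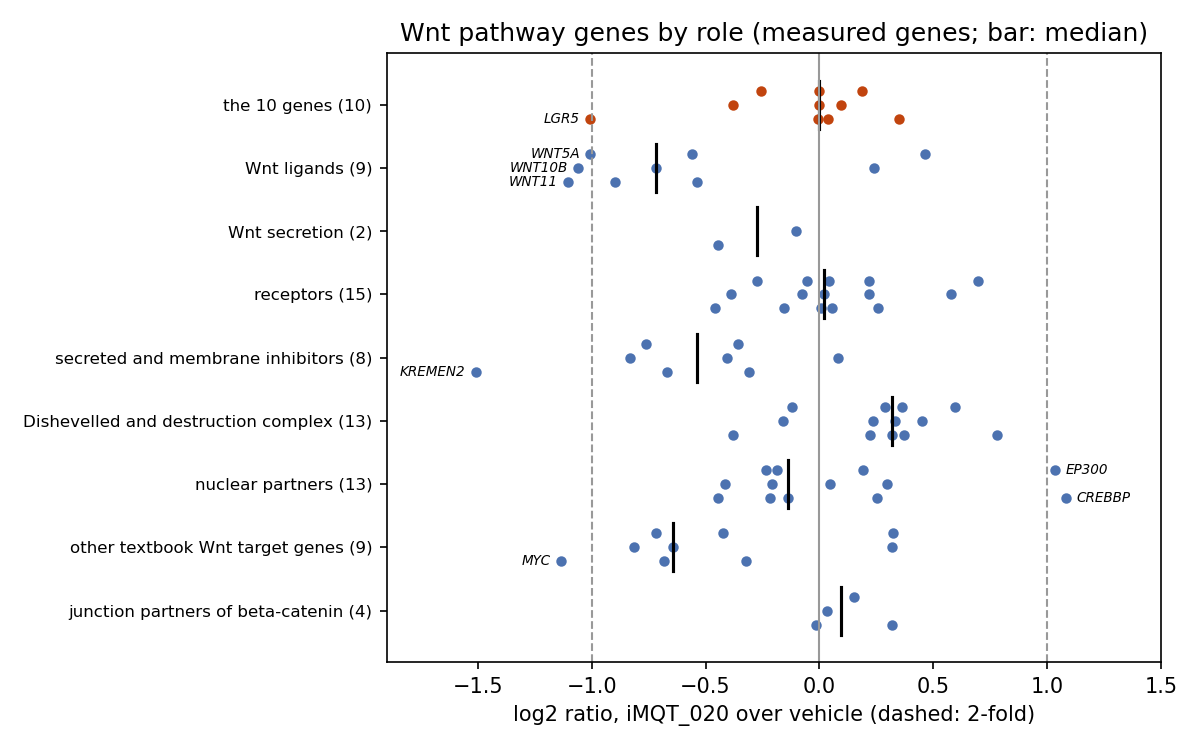
Log2 ratios, iMQT_020 over vehicle, of the measured Wnt pathway genes grouped by role, with the number measured in brackets; black bars are medians, dashed lines mark 2-fold, and genes past it are named. Wnt ligands (median −0.72), inhibitors (−0.54) and other targets (−0.64) lie mostly to the left. The joint list of Dishevelled and destruction complex genes (0.32) lies mostly to the right, with 3 of its 13 genes to the left.

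Of 19 Wnt ligand genes 9 were measured, 7 of them below 0 (52.7% of all measured genes), with a median of −0.72. At least 2-fold lower were 3 of the 9, beside 3.09% of all measured genes. The share was 7.32% among genes with mean counts of 91 to 364, a range below the mean counts of WNT10B and WNT5A. WNT11 had 387 and 159 counts (log2 ratio −1.10), WNT10B had 611 and 259 (−1.06) and WNT5A, a ligand best known for signalling without β-catenin, had 1360 and 599 (−1.01). WNT3A, a classical activator of β-catenin and the most abundant of them, was at 16.2 and 8.99 TPM, and its ratio was −0.90. By deposited TPM 1 ligand gene was past 2-fold, WNT10B at −1.06, and after GC and length centring again 1, WNT5A at −1.13. Both Wnt secretion genes were below 0, as were 52.7% of all measured genes. WLS, the carrier of Wnt to the surface, was at −0.44 and PORCN, which acylates Wnt, at −0.10.

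Receptors showed no common direction. Of 16 listed genes 15 were measured, and 9 were above 0 (47.3% of all measured genes). The median of the 15 was 0.02, and −0.00 after centring. Past 2-fold were 0 of them, beside 2.15% of all measured genes higher and 3.09% lower. FZD6 had the largest ratio, 0.70 (2384 and 3425 counts). RYK, a Wnt-binding receptor and the most abundant, was at 0.02. The co-receptors LRP5 and LRP6 were at 0.01 and 0.26, and after centring at 0.20 and 0.05.

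Of 16 genes for secreted and membrane inhibitors 8 were measured, 7 of them below 0 (52.7% of all measured genes), with a median of −0.54. KREMEN2, a receptor for DKK proteins, had 374 and 116 counts and was the 1 gene past 2-fold, at −1.51 (−1.83 to −1.21). Of all measured genes 3.09% were at least 2-fold lower, and 7.32% of those at mean counts of 91 to 364. SFRP1, which binds Wnt and was the most abundant, was at −0.76 (15.3 and 9.34 TPM).

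All 13 Dishevelled and destruction complex genes were measured, 10 of them above 0 (47.3% of all measured genes), and their median was 0.32, or 0.24 after centring. That 0 were past 2-fold is near the background of well-counted genes given above, a count range that does not include APC2. CSNK1A1, the CK1α kinase and the most abundant, was at 0.32 and APC2 had the largest ratio, 0.78, from 78 and 119 counts.

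Nuclear partners were divided, with 6 of 13 above 0 (47.3% of all measured genes) and a median of −0.14. The acetyltransferases CREBBP and EP300, general coactivators that β-catenin recruits, were both at least 2-fold higher. CREBBP had 7808 and 14647 counts (1.08) and EP300 had 9212 and 16728 (1.04). These are 2 of 13, beside 2.15% of all measured genes and 0.213% of those at mean counts of 1103 to 27366. After centring EP300 was at 0.89, within 2-fold. TLE5, a short relative of the TLE repressors and the most abundant, was at −0.45.

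Of 15 other textbook target genes 9 were measured, 7 of them below 0 (52.7% of all measured genes), with a median of −0.64 that was −0.34 by TPM and −0.38 after centring. MYC, both the most abundant and the one with the largest ratio, had 19348 and 7796 counts (−1.14), and was the 1 gene past 2-fold. The share at least 2-fold lower was 3.09% of all measured genes and 0.722% of those at mean counts of 1103 to 27366. ASCL2, OLFM4 and SMOC2, markers of LGR5-expressing intestinal stem cells, were at 0 counts in both libraries, as were SP5 and TBXT; a count of 0 allows up to 3 counts.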

How the data were processed

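Per the labels' protocols, total RNA was taken with TRIzol, and HISAT2 with Bowtie2 served to map the reads (GRCh38). The submitters' processing notes also name StringTie and edgeR, with neither version nor role. How reads were counted, and whether by strand, is not given in the sources used here. Estimated counts were deposited by the authors as whole numbers per gene and used as they stand, with FPKM and TPM that the authors had scaled for length and depth. A shorter deposited table repeats the FPKM of 20787 genes.

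Counts were scaled by TMM in edgeR 4.0.16 (R 4.3.3), with factors of 0.998 (vehicle) and 1.00 (iMQT_020). Log2 ratios used a prior count of 0.5. A gene counted as measured from 50 counts in either library. Exact Clopper-Pearson 95% intervals treat counts as independent reads and cover counting error only. No count test was possible with 1 library per group, and a 2-fold limit replaced it. The arithmetic was checked on simulated counts with known folds and counting error only. That check did not cover the spread between cultures. GC content and length came from GENCODE 44 canonical transcripts, for 93.6% of measured genes, in 10 by 10 bins. Gene positions came from RefSeq for GRCh38.p14, matched by gene ID. Python 3.11.15, numpy 2.4.6, pandas 2.3.3 and scipy 1.17.1 were used.

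The 10 genes and the pathway lists were chosen with earlier results of these data known. All 10 were named; from each other list, genes past 2-fold, the most abundant and the one with the largest absolute ratio were named, and overlapping genes with at least 50 counts. The R-spondins, LGR6, TCF7L1, LRP5, LRP6, PORCN, overlapping genes under 50 counts and genes at 0 were named after their values were seen. Alternatives were other scalings (total counts, upper quartile, median of ratios as in DESeq2 1.42.0), a minimum of 10 or 200 counts or no minimum, prior counts of 5 and none, a 1.5-fold limit, deposited TPM and FPKM with 1, 0.1 or no pseudocount, and GC and length centring.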

Additional observations from a re-analysis of the deposited data

How the results depend on the processing

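No library could be left out, and no paired analysis was possible because each group has 1 library. Signs of LGR5, AXIN2, TCF7, TCF7L2, CTNNB1 and RNF43 were the same in the 12 alternatives that could move them (a minimum count leaves a ratio as it is), with LGR5 between −1.06 and −0.35. Centring and the values without a prior or pseudocount were chosen after the data were seen. LGR4, AXIN1, LEF1 and ZNRF3, near 0, changed sign in some alternatives. LGR5 was within 2-fold, leaving 0 of the 10 lower, with a prior count of 5 and with TPM or FPKM at a pseudocount of 1, 0.1 or none. A pseudocount or a larger prior count draws low values toward no difference by construction, and the cause of these shifts was not tested. Over all measured genes the 2-fold limit gave 318 higher and 457 lower. Minimum counts of 10, 200 and none gave 1236, 89 and 3503 higher and 1008, 244 and 2756 lower, over more or fewer genes. A pseudocount of 1 gave 88 higher and 167 lower by TPM and 39 and 98 by FPKM; FPKM with 0.1 gave 204 higher. The 1.5-fold limit gave 933 and 1514, and centring gave 302 lower, cause not tested. Depth limits LGR5 most, at 253 and 111 counts.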

Other observations

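Counts and deposited TPM gave like ratios for nearly all of the 83 measured Wnt pathway genes, the 10 included: the TPM ratio exceeded the count ratio by a median of 0.05 on the log2 scale, and 4 genes lay more than 0.1 from that median. They were chosen after their values were seen. EPHB2, an ephrin receptor and Wnt target, was at −0.64 by counts (912 and 516) and −0.18 by TPM, and the transcript length implied by its counts and FPKM was 10.2 kb in vehicle and 7.64 kb in iMQT_020. WNT2B was at −0.56 and −0.26 (implied length 10.4 and 8.78 kb), WNT11 at −1.10 and −0.94 (2.27 and 2.10 kb) and LRP6 at 0.26 and 0.41 (10.6 and 9.87 kb). LGR5, by comparison, had implied lengths of 4.94 and 4.84 kb, and TCF7 3.56 and 3.69 kb.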
